A study of Mus musculus with 30 samples.

Results

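The comparison set mouse embryonic fibroblasts (MEFs) of CF1 genotype against MEFs of 129XOG2 genotype, the cells from which 2 reprogramming experiments started. Both were sampled on day 0, before any reprogramming agent, in DMEM with 10% fetal bovine serum and 1% penicillin and streptomycin. The CF1 cells were later given a small-molecule reprogramming medium, and the 129XOG2 cells a lentivirus carrying Oct4, Sox2, Klf4 and c-Myc. Each group held 2 libraries, so 4 of the 30 libraries of the series entered the test. Gene expression was measured by RNA-seq and is given as FPKM, fragments per kilobase of transcript, scaled to the size of the library. Of 55401 gene identifiers, 12147 were tested: those with at least 1 FPKM in at least 2 of the 4 libraries, without the 443 genes on chromosomes X and Y that passed and 8 identifiers with no annotated chromosome. The labels do not give the age, number or sex of the embryos, nor the passage of the day 0 cells; cells seeded for reprogramming were of passages 1-3. The CF1 libraries stand in 1 deposited table and the 129XOG2 libraries in another, so mouse stock, table and batch cannot be separated in any result below.

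MEFs are a mixed culture grown out from the body of a midgestation embryo, mostly connective tissue fibroblasts from limbs, trunk and skin, with passenger cells such as macrophages. CF1 is an outbred white mouse stock whose MEFs are widely used as feeder cells. OG2 mice carry a green fluorescent protein reporter driven by the Oct4 promoter, which reports the switch to pluripotency. Fibroblasts keep a record of where in the body they came from in the Hox genes they express, and their cholesterol, stress and growth programmes follow serum, density and passage.

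The 4 libraries were alike in estimated depth, with 38300000 to 40000000 steps each. A step is the smallest unit in which FPKM times length rises in the single-exon genes of a library. It was sought within a fixed range, which limits how far these estimates can differ. The share of FPKM in the 13 mitochondrial protein genes was 4.77% to 5.58%. Replicates correlated with r of 0.9950 in CF1 and 0.9941 in 129XOG2 MEFs, and libraries of different stocks with 0.9353 to 0.9374. The labels name no separate cultures, so the replicate spread may be technical and the p-values below speak only of that spread; 7224 of the 12147 genes had an unadjusted p under 0.05. All 4 libraries carried the fibroblast genes their label calls for. Col1a1, the main chain of type I collagen, had 1469 and 1431 FPKM in CF1 libraries, against 2451 and 2253 FPKM in 129XOG2 libraries. Vim, the intermediate filament of mesenchymal cells, had 2747 and 2730 FPKM in CF1 libraries, against 1773 and 1813 FPKM in 129XOG2 libraries. Pou5f1 (Oct4) was listed at 0 in all 4, and Nanog lay at 0.304 FPKM or below.

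The libraries divided in a second way that the genotype label does not give. In 144 of the 12147 genes (1.19%) the 8 CF1 libraries of days 0 to 12 all lay above or all lay below the other 22 libraries, and the other 22 include the 2 CF1 iPSC libraries of the same table. Only 11 genes (0.0906%) set all 10 CF1 libraries apart from all 20 libraries labelled 129XOG2, and no called protein-coding gene was among them. The 144 genes hold 114 of the 962 genes called at day 0 (11.9%), among them 55 of 113 called processed pseudogenes and 6 of 8 called ribosomal protein genes. This split was chosen after the values were seen, and no other split of 8 against 22 libraries was counted. It places the day 0 libraries of the 2 stocks on opposite sides, so a share of day 0 calls above 1.19% is built in. Without the 144 genes 472 were called higher and 376 lower. The cause was not tested.

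At day 0, 524 genes were higher and 438 lower in CF1 than in 129XOG2 MEFs, together 7.92% of those tested (4.31% higher, 3.61% lower). A gene was called at a limma adjusted p under 0.05 and at least a 2-fold change on the log2(FPKM + 1) scale, where the change of weakly expressed genes comes out too small; "higher" and "lower" are used of called genes. The median log2 fold change of all genes tested was 0.06, and each list below is read against that value and those shares. Fold changes were above 0 in 6868 and below 0 in 5279 of all genes tested, and signs in the lists are read against these. The highest rise was in Ccl6, a chemokine of myeloid cells (chr11:83587882-83593087, mm10), and the deepest fall among named genes in Igfbp5, a secreted binding protein of insulin-like growth factors (chr1:72857932-72874884). Igfbp5 had 7.69 and 7.26 FPKM in CF1 libraries, against 196 and 167 FPKM in 129XOG2 libraries (log2 fold change -4.42, SE 0.08, adjusted p = 1.43e-07). Penk, the precursor of enkephalin peptides, had 3.73 and 3.13 FPKM in CF1 libraries, against 68.7 and 50.7 FPKM in 129XOG2 libraries (-3.76, SE 0.14, adjusted p = 1.53e-06). Named rises and falls were chosen among called genes whose libraries did not overlap between the groups. The separation of Igfbp5 and Penk follows from that choice. Rescaling to TPM gave 583 higher and 709 lower, and median-ratio scaling 452 higher and 511 lower, so which direction is the larger depends on the scaling.

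**Figure D1:**
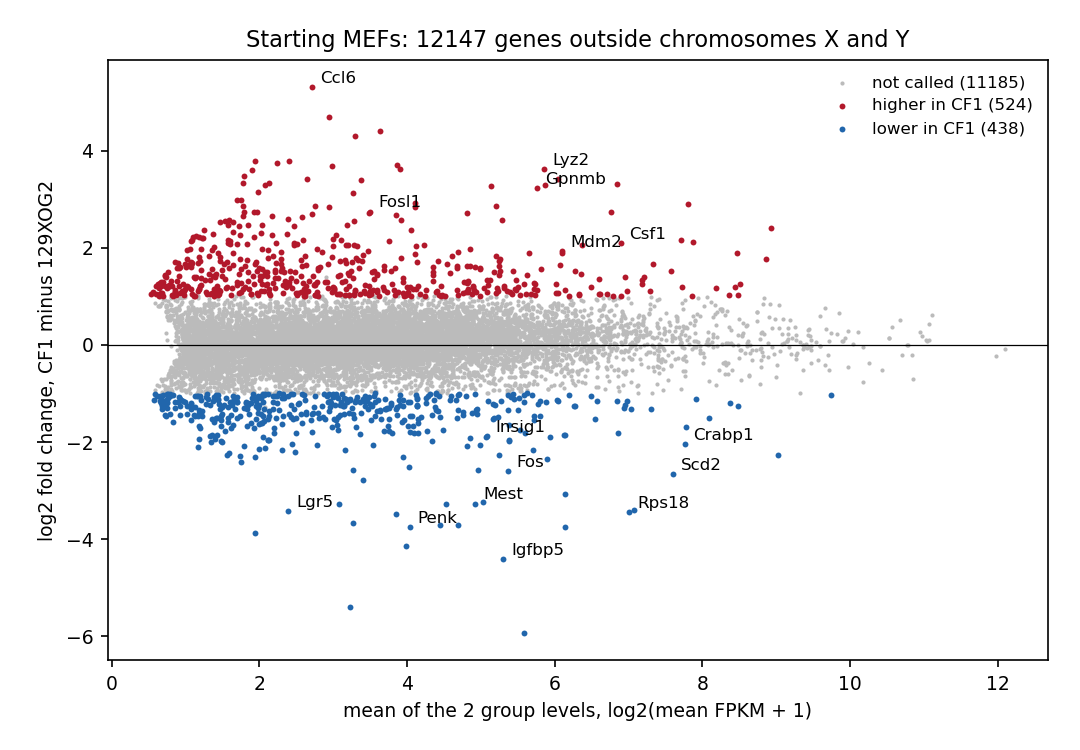
Log2 fold change (CF1 minus 129XOG2, y axis) against the mean of the 2 group levels (log2 of mean FPKM + 1, x axis) for the 12147 genes tested; red points are the 524 called higher, blue points the 438 called lower, grey points the rest. Ccl6 stands highest among the labelled genes and Igfbp5 lowest.

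Macrophage markers had the highest share of higher genes of any list with at least 10 tested members. Of 14 markers, 10 were higher and 0 lower, with a median log2 fold change of 1.69, and all 14 were tested. Lyz2, the lysozyme of macrophages and granulocytes, had 207 and 195 FPKM in CF1 libraries, against 13.9 and 17.2 FPKM in 129XOG2 libraries (3.62, SE 0.09, adjusted p = 3.72e-07). Cd68, a lysosomal glycoprotein of macrophages, had 26.6 and 28.8 FPKM in CF1 libraries, against 2.27 and 2.22 FPKM in 129XOG2 libraries (3.14, SE 0.09, adjusted p = 4.03e-07). The mannose receptor gene Mrc1 had 6.02 and 6.02 FPKM in CF1 libraries, against 0.266 and 0.247 FPKM in 129XOG2 libraries (2.48). Lyz2 and Cd68 are also among the named rises, which were chosen for libraries that did not overlap. Csf1r, the receptor for the growth factor that keeps macrophages alive, had 5.20 and 5.02 FPKM in CF1 libraries, against 2.18 and 2.21 FPKM in 129XOG2 libraries, and at 0.94 stayed below the 2-fold limit, as did Ptprc (0.82) and C1qb (0.80). Cd14, a co-receptor for bacterial lipopolysaccharide that fibroblasts can also express, was at -0.11. The markers summed to 310 and 289 FPKM in CF1 libraries, against 34.4 and 37.1 FPKM in 129XOG2 libraries, and without Lyz2 to 103 and 94.1 FPKM, against 20.5 and 20 FPKM. No marker was at 0 in all 4 libraries. In bulk RNA, more cells of a type and more RNA per cell cannot be told apart.

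Ccl6, a chemokine known from myeloid cells, is outside the marker list. Ccl6 had 40.9 and 39.7 FPKM in CF1 libraries, against 0.0545 and 0.0289 FPKM in 129XOG2 libraries (5.31, SE 0.09, adjusted p = 1.31e-07). Its neighbour on chromosome 11, the chemokine gene Ccl9 (chr11:83572919-83578636), had 16.4 and 16 FPKM in CF1 libraries, against 0.248 and 0.333 FPKM in 129XOG2 libraries (3.74). Both were below 1 FPKM in 129XOG2 MEFs, so they passed the filter on low values through the CF1 libraries alone. All genes of this paragraph are named rises, chosen for size and for libraries that did not overlap. Their separation follows from that choice. Among the 15 named rises were also the scavenger receptor gene Msr1 (3.43), the lectin receptor genes Clec4n (3.49) and Clec4d (2.86), the macrophage elastase gene Mmp12 (3.34), the Fc receptor gene Fcgr2b (2.99) and Gpnmb, a glycoprotein of lysosome-rich cells (3.23, with 168 and 162 FPKM in CF1 libraries, against 16.2 and 17.2 FPKM in 129XOG2 libraries). Serpinb9b, a protease inhibitor (3.39), Slfn2, a Schlafen family gene (2.87), and Ankrd1, a muscle ankyrin repeat protein and target of the Yap coactivator (2.86), were higher too. Clec4n, Clec4d, Mmp12 and Fcgr2b were also below 1 FPKM in both 129XOG2 libraries.

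Csf1, the ligand of Csf1r, had 244 and 248 FPKM in CF1 libraries, against 56.4 and 56.8 FPKM in 129XOG2 libraries (2.1, SE 0.05, adjusted p = 3.5e-07). It belongs to a list of cytokines and chemokines in which 7 of 28 tested members were higher, 2 lower and 19 not called (median 0.50). Inhba, which encodes the activin A subunit, had 169 and 166 FPKM in CF1 libraries, against 40.7 and 38.4 FPKM in 129XOG2 libraries (2.06). Il1rl1, the receptor of interleukin 33, was higher by 1.25 and Ptgs2, the inducible prostaglandin synthase, by 1.14. The lower members were the neutrophil attractant Cxcl5, with 8.90 and 7.92 FPKM in CF1 libraries, against 30.2 and 34.3 FPKM in 129XOG2 libraries (-1.82), and Cxcl14 (-1.64). Of 12 tested complement and acute-phase genes 1 was higher and 2 lower (median -0.29), led by the protease inhibitor Serpina3n (-2.41), and with either 129XOG2 library left out 1 was lower.

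Some genes of class I antigen presentation were higher in CF1 MEFs. Of 14 tested members 4 were higher and 0 lower (median 0.54). H2-D1, a classical class I heavy chain, had 48.6 and 42.4 FPKM in CF1 libraries, against 12.3 and 11.6 FPKM in 129XOG2 libraries (1.84, SE 0.08, adjusted p = 3.71e-06). H2-K1, the other classical heavy chain, had 42.6 and 38.2 FPKM in CF1 libraries, against 11.3 and 12.8 FPKM in 129XOG2 libraries (1.66). Of 31 tested interferon response genes 4 were higher and 0 lower (median 0.29), namely Ifi27l2a (2.66), Oas1a (1.51), Bst2 (1.44) and Usp18 (1.15). Irf9, a subunit of the interferon-activated transcription factor (0.22), and the interferon-induced Ifit1 (0.07) were not called.

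**Figure D2:**
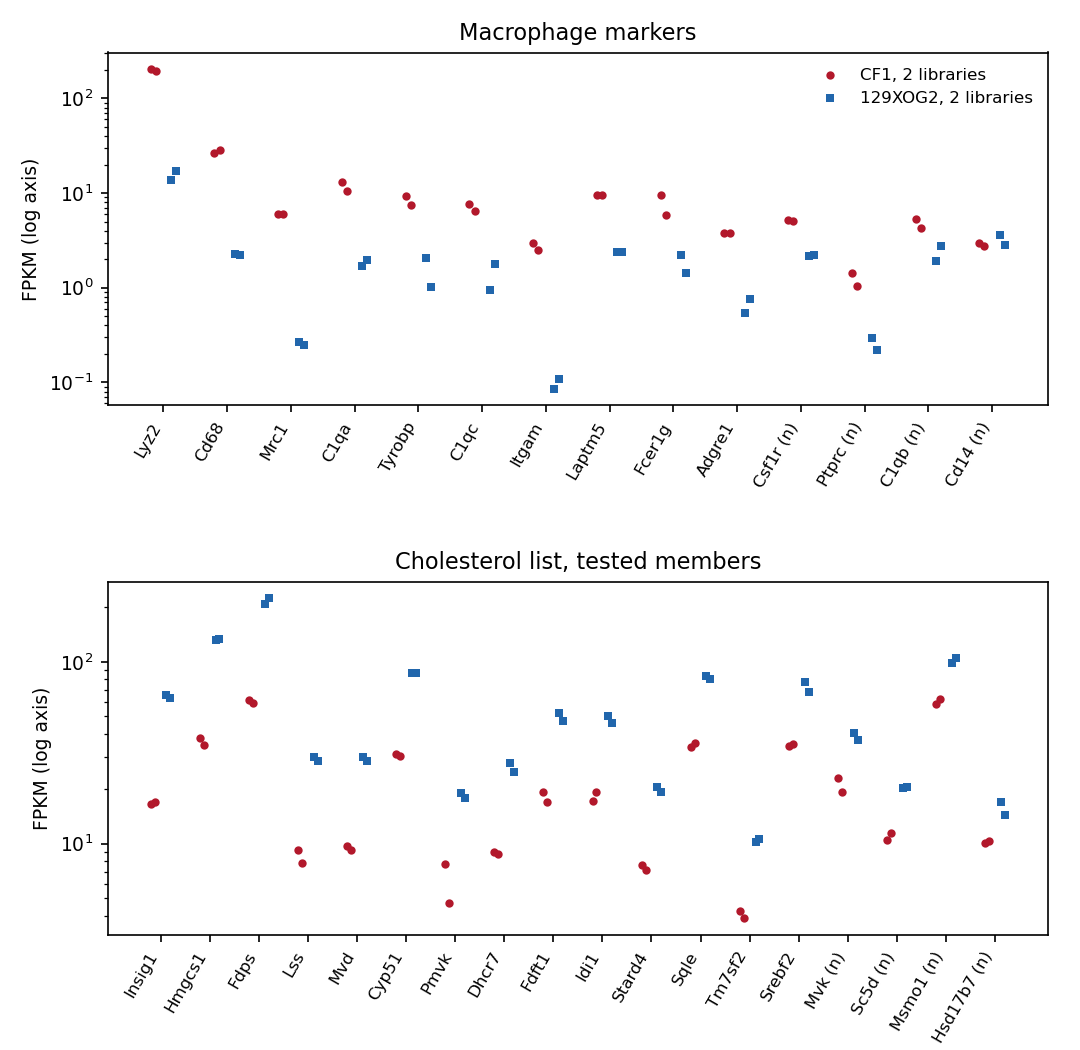
FPKM on a log axis in each library (CF1 red circles on the left of each pair, 129XOG2 blue squares on the right; 2 libraries each) for 14 macrophage markers and 18 of the 22 tested members of the cholesterol list, in order of fold change; (n) marks members that were not called. The fold change is above 0 for 13 of the 14 macrophage markers and below 0 for all 18 cholesterol genes drawn. Over all 12147 genes tested it is above 0 for 6868 and below 0 for 5279.

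Cholesterol synthesis had the highest share of lower genes of any list with at least 10 tested members. Of 22 tested members 16 were lower and 0 higher in CF1 MEFs, the median was -1.33, and all 22 fold changes were negative. The list covers the mevalonate pathway, the sterol branch and their regulators. Hmgcs1, which makes HMG-CoA at the head of the pathway, had 37.9 and 34.8 FPKM in CF1 libraries, against 132 and 134 FPKM in 129XOG2 libraries (-1.85, SE 0.06, adjusted p = 1.01e-06). Fdps, which makes farnesyl diphosphate, had 61.7 and 59.6 FPKM in CF1 libraries, against 207 and 225 FPKM in 129XOG2 libraries (-1.81). Insig1, which holds the sterol sensor in the endoplasmic reticulum, had 16.4 and 17.0 FPKM in CF1 libraries, against 65.9 and 62.8 FPKM in 129XOG2 libraries (-1.88). Dhcr7, which makes the last step to cholesterol, was lower (-1.46), as was Sqle, which epoxidises squalene (-1.21). The regulator Srebf2 was at -1.04 and lost its call without 129XOG2 replicate 1 (-0.95).

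Promoters are shown for the 4 cholesterol genes that fell most among the members with an entry in RefSeq's promoter table (GRCm38.p6, 250 bases before to 50 after the start). Of the 22 tested members, called or not, 14 matched the RefSeq table. CCAAT is the box bound by the factor NF-Y, which works beside the sterol regulator SREBP at many of these genes. All 14 held CCAAT on either strand, as did 37.4% of the 32851 promoters and 43.1% of the 8803 tested genes with an entry. TCACNCCAC, a form of the sterol regulatory element, searched on both strands, was in 1 of the 14, Hmgcs1, and in 1.24% of all promoters. A match is a string of letters and not a shown site, and whether CCAAT bears on the lower levels was not tested. The windows lie at chr5:28071162-28071461 (plus strand, Insig1), chr13:119690101-119690400 (plus, Hmgcs1), chr10:76531355-76531654 (plus, Lss, which closes the sterol rings) and chr8:122443373-122443672 (minus, Mvd, which decarboxylates mevalonate diphosphate). Capitals mark CCAAT or its reverse complement ATTGG, and the 1 sterol element of Hmgcs1; the boxes number 1, 4, 1 and 2 in the order shown.
Insig1: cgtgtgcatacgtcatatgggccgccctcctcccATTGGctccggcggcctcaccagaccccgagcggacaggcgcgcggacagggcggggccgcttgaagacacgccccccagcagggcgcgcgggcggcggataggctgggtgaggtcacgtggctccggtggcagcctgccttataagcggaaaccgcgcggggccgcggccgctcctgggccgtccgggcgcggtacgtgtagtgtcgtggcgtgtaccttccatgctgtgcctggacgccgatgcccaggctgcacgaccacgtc
Hmgcs1: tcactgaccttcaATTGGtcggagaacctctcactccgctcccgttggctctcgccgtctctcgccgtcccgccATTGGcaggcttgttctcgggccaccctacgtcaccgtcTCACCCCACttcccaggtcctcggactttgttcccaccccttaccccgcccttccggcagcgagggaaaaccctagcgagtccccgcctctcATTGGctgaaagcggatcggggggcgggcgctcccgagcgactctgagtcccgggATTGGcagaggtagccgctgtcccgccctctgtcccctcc
Lss: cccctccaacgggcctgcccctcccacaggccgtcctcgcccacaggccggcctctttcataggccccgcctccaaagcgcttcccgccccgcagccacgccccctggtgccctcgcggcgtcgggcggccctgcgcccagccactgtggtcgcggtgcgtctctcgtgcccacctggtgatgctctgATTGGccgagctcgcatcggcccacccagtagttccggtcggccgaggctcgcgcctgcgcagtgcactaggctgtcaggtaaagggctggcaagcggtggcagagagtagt
Mvd: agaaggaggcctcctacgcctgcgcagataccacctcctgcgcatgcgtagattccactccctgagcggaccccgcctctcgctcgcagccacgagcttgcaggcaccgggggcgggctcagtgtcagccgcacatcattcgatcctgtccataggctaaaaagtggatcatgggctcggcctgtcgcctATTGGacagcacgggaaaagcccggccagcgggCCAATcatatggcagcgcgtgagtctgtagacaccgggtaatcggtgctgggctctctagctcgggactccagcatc

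Fatty acid desaturases were lower beside the sterol genes. Scd2 had 73.4 and 79.4 FPKM in CF1 libraries, against 507 and 467 FPKM in 129XOG2 libraries (-2.66, SE 0.07, adjusted p = 3.64e-07), and Scd1 was at 20 and 20 FPKM, against 85.1 and 77.3 FPKM (-1.97). Both are stearoyl-CoA desaturases. In the same list of PPAR and lipid handling genes, 4 of 19 tested members were higher and 2 lower (median 0.02). The higher ones include Apoe, the lipoprotein component, with 50 and 40.6 FPKM in CF1 libraries, against 5.55 and 5.29 FPKM in 129XOG2 libraries (2.84), and the fatty acid and scavenger receptor gene Cd36 (2.26). Both are also strongly expressed by macrophages; how much of their level those cells gave was not tested.

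Several targets of p53 were higher in CF1 MEFs, while Trp53 itself was not called. In the senescence and p53 list 7 of 23 tested members were higher, 0 lower and 16 not called (median 0.36). Mdm2, the ubiquitin ligase that p53 induces to limit itself, had 128 and 140 FPKM in CF1 libraries, against 34.5 and 34 FPKM in 129XOG2 libraries (1.94, SE 0.06, adjusted p = 8.57e-07). Cdkn1a (p21), a brake on the cell cycle, had 233 and 228 FPKM in CF1 libraries, against 88.4 and 92 FPKM in 129XOG2 libraries (1.34). Perp, an apoptosis-linked membrane protein, was higher by 1.54, Pmaip1 (Noxa), a BH3-only death gene, by 1.30, and the nuclease gene Aen by 1.29. Phlda3 (1.06) and Ei24 (1.06) were called too, but under median-ratio scaling both came to 0.98 and were not. Trp53 had 73.1 and 71.6 FPKM in CF1 libraries, against 67.3 and 72.9 FPKM in 129XOG2 libraries (0.05), and Cdkn2a, the p16 and p19Arf locus, was at 0.36. None of the 28 proliferation genes was called by limma in either direction, though 27 of the 28 fold changes were positive (median 0.31) and the list summed to 1356 and 1336 FPKM in CF1 libraries, against 1022 and 1017 FPKM in 129XOG2 libraries. Mki67, a marker of cycling cells, had 25.6 and 27.6 FPKM in CF1 libraries, against 26.8 and 24.5 FPKM in 129XOG2 libraries.

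Some genes of the ATF4 response, which answers amino acid shortage and stress of the endoplasmic reticulum, were lower in CF1 MEFs. Of 23 tested members 7 were lower and 0 higher (median -0.76), and all 23 fold changes were negative; the list as written also holds Ddr2, a collagen receptor, which was not called. Trib3, a pseudokinase induced by ATF4, had 9.60 and 8.98 FPKM in CF1 libraries, against 39.5 and 39.0 FPKM in 129XOG2 libraries (-1.97, SE 0.07, adjusted p = 1.11e-06). Pck2, the mitochondrial phosphoenolpyruvate carboxykinase, had 16.1 and 16.8 FPKM in CF1 libraries, against 62.4 and 65.7 FPKM in 129XOG2 libraries (-1.90). The stress protein gene Nupr1 (-1.80), the glutathione-degrading Chac1 (-1.60), the proline synthesis enzyme Aldh18a1 (-1.34), the cystine transporter gene Slc7a11 (-1.29) and the secreted Stc2 (-1.15) were lower as well. Atf4 itself was at -0.32, and the serine synthesis enzymes Phgdh (-0.17) and Psat1 (-0.40) were not called.

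Hox genes differed by cluster and by position within it. Over the 34 tested members 1 was higher and 6 lower, with a median of 0.03, and the 6 lower genes were all among the paralogues 9 to 13, the tail-end part of the clusters. Of 15 tested paralogues 9 to 13, 6 were lower, 0 higher, and 13 fold changes were negative (median -0.59); of 19 tested paralogues 1 to 8, 0 were lower, 1 was higher, and 15 were positive (median 0.24). This grouping was chosen after the values were seen. All 6 lower genes lie in the Hoxa and Hoxd clusters. Hoxa13 had 1.35 and 1.76 FPKM in CF1 libraries, against 7.53 and 7.19 FPKM in 129XOG2 libraries (-1.72, SE 0.12, adjusted p = 2.45e-05). Hoxd13 had 12.7 and 11.7 FPKM in CF1 libraries, against 32.4 and 32.6 FPKM in 129XOG2 libraries (-1.35). These paralogues pattern the hand and foot in the mouse limb. Hoxd11 (-1.40), Hoxa10 (-1.33) and Hoxd12 (-1.22) were lower too, and Hoxa11 was called at -1.01 but not without 129XOG2 replicate 1 (-0.90). In the Hoxb and Hoxc clusters none of the 6 tested paralogues 9 to 13 was called by limma, and their fold changes ran from -0.59 to 0.25. Hoxb7 was the 1 higher gene (1.07), and its call was lost without CF1 replicate 1 (0.99).

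**Figure D3:**
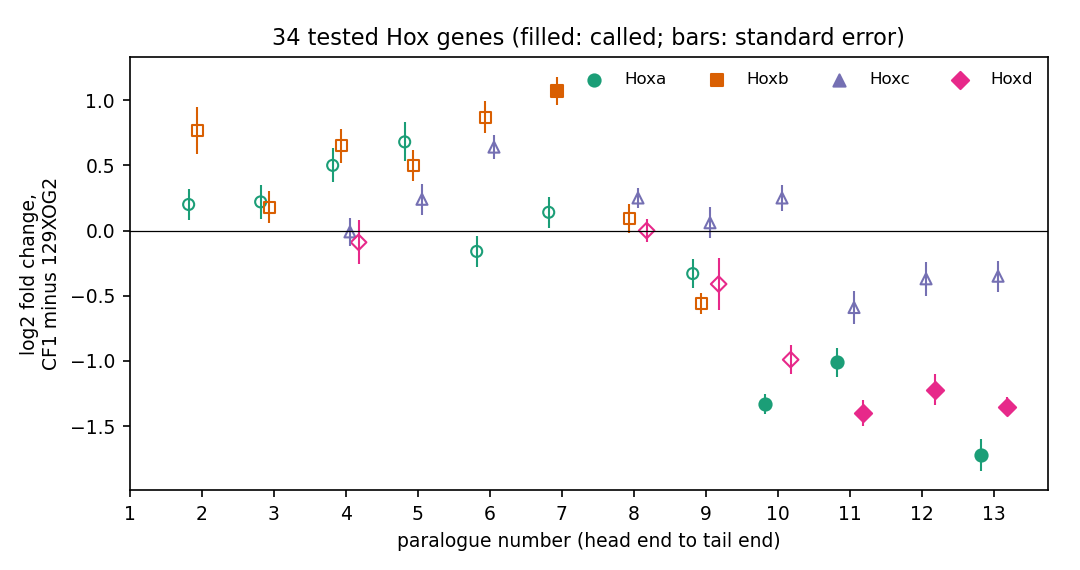
Log2 fold change (CF1 minus 129XOG2, y axis) of the 34 tested Hox genes by paralogue number (x axis); colours and marker shapes stand for the 4 clusters, filled markers are called genes and bars are the standard error of the fit. Called lower genes are Hoxa and Hoxd paralogues 10 to 13, while the paralogues 1 to 8 lie around or above 0.

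Some transcription factors of limb and regional mesenchyme were lower as well. Of 33 tested regional factors 5 were lower and 0 higher (median -0.45), with 24 negative fold changes. Msx1, a homeobox factor of the distal limb and face, had 5.54 and 6.12 FPKM in CF1 libraries, against 36.9 and 38.7 FPKM in 129XOG2 libraries (-2.51, SE 0.08, adjusted p = 7.21e-07). Osr2, a factor of joints and palate, had 0.796 and 0.639 FPKM in CF1 libraries, against 7.04 and 8.02 FPKM in 129XOG2 libraries (-2.31). The hindlimb factor Tbx4 (-1.27), the proximal limb factor Shox2 (-1.24) and Lhx2, a factor of the growing limb bud (-1.23), followed. Pitx1 (-0.66) and Tbx5 (-0.71), which mark hindlimb and forelimb, were not called. With a pseudocount of 0.1 the list had 9 lower members.

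Fos and Fosb were lower in CF1 MEFs and their relative Fosl1 was higher. Fos and Fosb are immediate-early genes, switched on within minutes by serum or handling. Fos had 16 and 15.6 FPKM in CF1 libraries, against 103 and 98.6 FPKM in 129XOG2 libraries (-2.60, SE 0.06, adjusted p = 2.48e-07). Fosb had 1.47 and 1.97 FPKM in CF1 libraries, against 36.8 and 30.2 FPKM in 129XOG2 libraries (-3.66). Fosl1 (Fra-1), another AP-1 subunit, had 28.9 and 28.1 FPKM in CF1 libraries, against 3.36 and 3.39 FPKM in 129XOG2 libraries (2.75). Fos and Fosb are among the named falls, which were chosen for libraries that did not overlap. Egr1 was lower too, with 38.3 and 38.1 FPKM in CF1 libraries, against 91.6 and 83.1 FPKM in 129XOG2 libraries (-1.17). The other 19 of the 23 tested members were not called, among them Jun (0.57), Junb (-0.09), Myc (0.70) and Klf4 (0.52), and the list median was -0.09.

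Called members of the collagen, proteoglycan and fibroblast lists were lower in CF1 MEFs, and the proteases moved both ways. Among 26 tested collagen and elastic fibre genes 7 were lower and 0 higher (median -0.09). Eln, the elastin gene, had 58.0 and 49.8 FPKM in CF1 libraries, against 158 and 156 FPKM in 129XOG2 libraries (-1.53, SE 0.08, adjusted p = 6.64e-06). Fbn2, the fetal fibrillin, had 9.23 and 10.1 FPKM in CF1 libraries, against 110 and 88.9 FPKM in 129XOG2 libraries (-3.23). The microfibril gene Mfap2 (-2.07), the elastic fibre interface gene Emilin1 (-1.50) and the elastic fibre assembly gene Fbln5 (-1.15) were lower with them, while the microfibril genes Mfap4 (-0.13) and Mfap5 (0.01) and the elastic fibre genes Efemp2 (0.02) and Loxl1 (0.14) were not called. Among 19 tested small leucine-rich proteoglycan and matricellular genes 5 were lower and 0 higher (median -0.39). Aspn, asporin, had 23.2 and 24.5 FPKM in CF1 libraries, against 110 and 111 FPKM in 129XOG2 libraries (-2.17), and Omd (-1.78), Ogn (-1.48) and Fmod (-1.36) of the same family followed. In the fibroblast and mesenchyme list 4 of 31 tested members were lower and 0 higher (median -0.46), namely Col3a1 (-1.20), Fbn1 (-1.16), Lum (-1.14) and Col5a1 (-1.11); Fbn1 came to -0.99 without 129XOG2 replicate 1. Igsf10, a secreted immunoglobulin superfamily protein, was also lower (-2.78).

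Of 22 tested matrix proteases and inhibitors 6 were higher and 4 lower (median 0.06). Mmp3, stromelysin, had 15 and 16.3 FPKM in CF1 libraries, against 1.51 and 1.65 FPKM in 129XOG2 libraries (2.69, SE 0.10, adjusted p = 1.3e-06). The urokinase gene Plau had 49.6 and 50.2 FPKM in CF1 libraries, against 15.3 and 15.5 FPKM in 129XOG2 libraries (1.63), and its receptor gene Plaur was higher by 1.56. The other higher members, Serpinb2 (1.67), Mmp9 (1.59) and Mmp13 (1.42), were below 1 FPKM in 129XOG2 MEFs. With either CF1 library left out these 3 missed the filter on low values and 3 higher members were counted. Adamts1, an aggrecanase, had 19.6 and 20.8 FPKM in CF1 libraries, against 85.1 and 76.5 FPKM in 129XOG2 libraries (-1.95), and Adamts4 (-1.72), Mmp11 (-1.24) and the tissue plasminogen activator gene Plat (-1.13) were lower.

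Of 16 tested contractile and TGF-beta response genes 3 were higher and 2 lower (median 0.37). Ccn2, a matricellular growth factor under TGF-beta and Yap, had 873 and 843 FPKM in CF1 libraries, against 256 and 245 FPKM in 129XOG2 libraries (1.77, SE 0.06, adjusted p = 1.02e-06). Lmod1, an actin-nucleating protein of smooth muscle (1.16), was also higher, and the collagen receptor gene Itga11 (-1.45) and the matrix gene Tgfbi (-1.22) were lower. The smooth muscle actin gene Acta2, with 1755 and 1688 FPKM in CF1 libraries, against 1301 and 1381 FPKM in 129XOG2 libraries (0.36), was not called, nor was Tagln (0.60).

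Signalling genes of the Wnt, retinoid and insulin-like growth factor pathways were lower in part. Of 22 tested Wnt pathway members 7 were lower and 0 higher (median -0.48). Lgr5, a receptor for R-spondins, had 0.726 and 0.481 FPKM in CF1 libraries, against 16.9 and 15.4 FPKM in 129XOG2 libraries (-3.42, SE 0.12, adjusted p = 1.01e-06). Its ligand Rspo2 (-1.63), the secreted inhibitors Sfrp2 (-1.50), Sfrp1 (-1.10) and Dkk3 (-1.44), and Wnt16 (-1.42) were lower, while the feedback target Axin2 was at 0.20. Of 12 tested retinoid genes 4 were lower and 2 higher (median -0.15). Crabp1, which binds retinoic acid in the cytosol, had 114 and 99.0 FPKM in CF1 libraries, against 432 and 452 FPKM in 129XOG2 libraries (-2.05). Among the retinaldehyde dehydrogenases Aldh1a2 was lower (-1.32), and Aldh1a1 (1.78) and Aldh1a3 (1.25) were higher; with either CF1 library left out 1 of the list was higher. Of 16 tested genes of the insulin-like growth factor axis 1 was higher, the protease gene Pappa (1.03, and 0.91 without 129XOG2 replicate 2), and 2 were lower (median -0.02), Igfbp5 and Igfbp2. Igfbp2 had 24.6 and 25.0 FPKM in CF1 libraries, against 88.5 and 90.7 FPKM in 129XOG2 libraries (-1.81).

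Imprinted genes, which are expressed from 1 parental copy, were lower in 5 of 25 tested members and higher in 1 (median -0.38). Mest, a maternally imprinted hydrolase gene of fetal mesoderm, had 7.96 and 9.61 FPKM in CF1 libraries, against 93.8 and 92.8 FPKM in 129XOG2 libraries (-3.27, SE 0.09, adjusted p = 3.93e-07). In the Dlk1-Dio3 cluster the non-coding RNAs of the maternal copy were lower and Dlk1, of the paternal copy, was higher. Rian had 103 and 94.9 FPKM in CF1 libraries, against 245 and 251 FPKM in 129XOG2 libraries (-1.31), and Meg3 (-1.25) and Mirg (-1.54) were lower too. Dlk1, a membrane ligand related to Notch ligands, had 233 and 228 FPKM in CF1 libraries, against 110 and 103 FPKM in 129XOG2 libraries (1.11). Peg3 was lower (-1.44), and H19 (-0.38) and Igf2 (-0.29) were not called.

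Other lists held few calls. Of 27 tested ribosome biogenesis genes 2 were higher and 0 lower, though 26 of the 27 fold changes were positive (median 0.55). Of 25 tested glycolysis and hypoxia genes only Pfkp (1.20) was higher and 0 lower (median 0.23), and of 19 tested AhR and Nrf2 response genes 2 were higher and 0 lower (median 0.11; 1 higher with either CF1 library or 129XOG2 replicate 2 left out). None of the 13 mitochondrial-encoded genes (median 0.10), the 26 chromatin regulators and reprogramming barriers (median -0.08) or the 4 tested pluripotency and reprogramming factors (median 0.22) was called by limma. Of 7 tested replication-dependent histone genes 1 was lower (median -0.50) and of 5 tested structural non-coding RNA genes 1 was lower (median -0.19). Gsta1, a glutathione transferase of the AhR and Nrf2 list, was listed at 0 in both 129XOG2 libraries and had 3.37 and 3.46 FPKM in CF1 libraries.

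**Figure D4:**
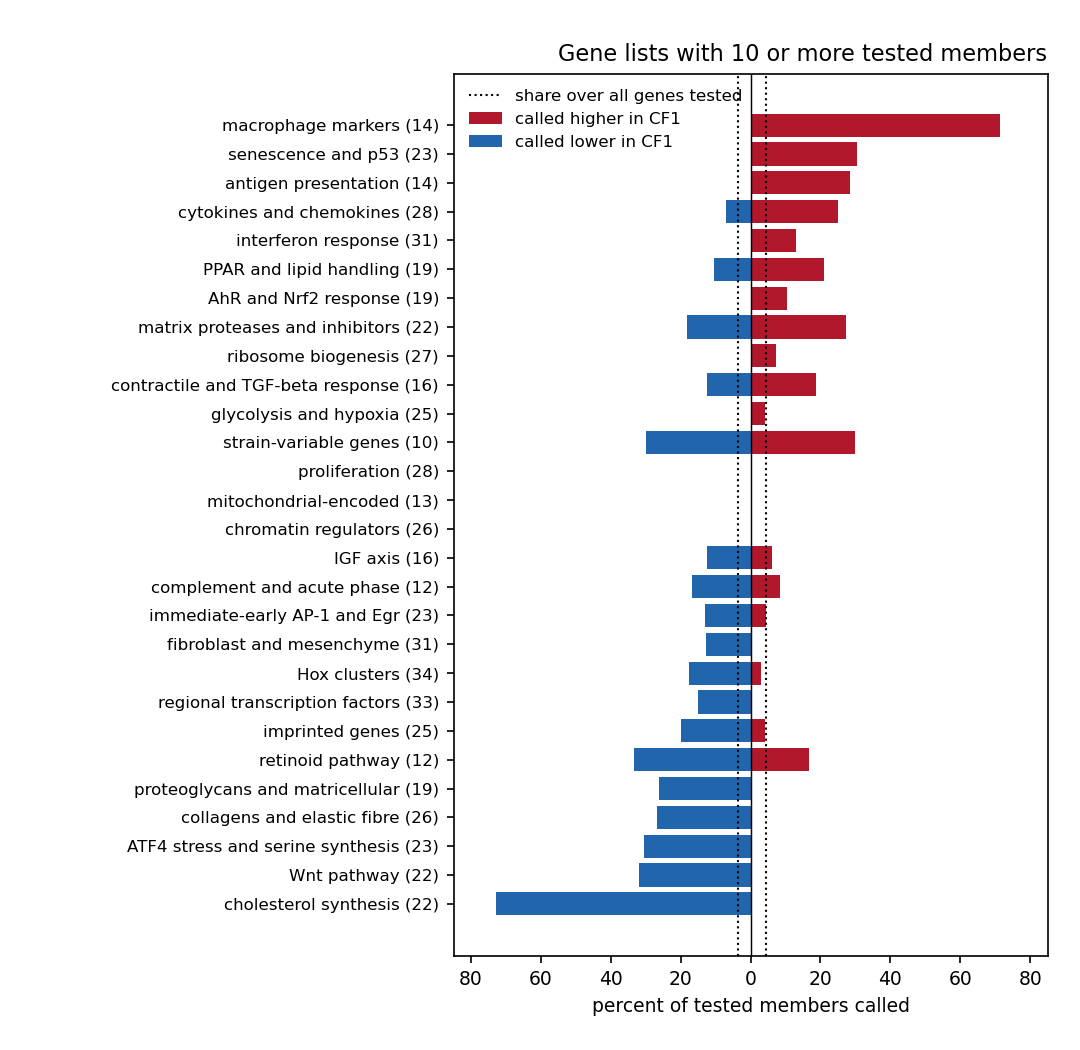
Percent of the tested members of each gene list (number of tested members in brackets) called lower (blue, left of 0) or higher (red, right of 0) in CF1 MEFs, for lists with at least 10 tested members; dotted lines are the shares over all genes tested, 3.61% lower and 4.31% higher. The macrophage list reaches furthest to the right, with 10 of 14, and the cholesterol list furthest to the left, with 16 of 22.

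Markers of other cell types a MEF culture could hold were read list by list. Smooth muscle and pericyte markers were abundant in both groups, with 8 of 10 tested and sums of 296 and 295 FPKM in CF1 libraries, against 257 and 259 FPKM in 129XOG2 libraries; 1 was higher and 1 lower, and with either 129XOG2 library left out 0 were lower. Osteoblast markers, some of which fibroblasts share, summed to 159 and 155 FPKM in CF1 libraries, against 153 and 162 FPKM in 129XOG2 libraries, and none of the 3 tested was called by limma, nor was any of 3 tested chondrocyte markers. Simple epithelial markers summed to 46.2 and 42.3 FPKM in CF1 libraries, against 11.8 and 13.6 FPKM in 129XOG2 libraries. Of the 3 tested of 20, Krt19, with 37.8 and 33.7 FPKM in CF1 libraries, against 4.53 and 5.86 FPKM in 129XOG2 libraries (2.57), and Krt18 (1.03, and 0.91 without 129XOG2 replicate 1) were higher. Epcam and Cdh1, which define epithelium, stayed at 0.171 FPKM or below, and Grhl2, Ovol1, Ovol2 and Prss8 were at 0 in all 4. Krt19 also marks mesothelium, whose 8 markers summed to 43.6 and 39.2 FPKM in CF1 libraries, against 17.6 and 18.7 FPKM in 129XOG2 libraries, with 1 higher and 2 lower of 5 tested (1 lower with either 129XOG2 library left out).

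Keratinocyte markers summed to 56 and 54.6 FPKM in CF1 libraries, against 24.6 and 22.8 FPKM in 129XOG2 libraries. Of the 3 tested, Itga6, an integrin chain also made outside the skin, was higher (1.58) and Sfn lower (-1.97), with Krt1 and Dsg3 at 0. Adipocyte markers summed to 14.7 and 13.3 FPKM in CF1 libraries, against 6.35 and 7.84 FPKM in 129XOG2 libraries, with 1 of 3 tested higher (0 under median-ratio scaling) and Cfd and Cidec at 0. Neural markers summed to 73.7 and 71.4 FPKM in CF1 libraries, against 51.1 and 50.7 FPKM in 129XOG2 libraries. Of the 5 tested, Nes, a filament gene also made by proliferating mesenchyme, was higher (2.06) and Tubb3 lower (-1.51), with Sox1 at 0. Endothelial markers summed to 8.89 and 8.92 FPKM in CF1 libraries, against 8.60 and 8.24 FPKM in 129XOG2 libraries, with Kdr higher (1.75), Erg lower (-1.51), and Cldn5 and Sox17 at 0. With either 129XOG2 library left out, Erg and Sfn, which were near 0 in CF1 MEFs, missed the filter on low values. Of 5 tested Schwann and neural crest markers 2 were higher and 1 lower; 1 was higher without either CF1 library or without 129XOG2 replicate 2, and 0 were lower without either 129XOG2 library. Of 8 tested skeletal muscle markers 1 was lower, and 2 were without CF1 replicate 2. No erythroid or liver marker was tested, with summed levels of 1.08 and 1.19 FPKM in CF1 libraries, against 0.166 and 0.319 FPKM in 129XOG2 libraries. The part of any such cells in the results above was not tested.

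Ribosomal protein genes and their pseudogenes differed in a way of their own. Ribosomal proteins are made from single active genes, of which the genome holds many processed pseudogenes, intronless copies that are almost identical in sequence, so the reads of a gene and its copies can be split between them by the counting. Of 72 tested ribosomal protein genes 8 were lower and 0 higher, and of 79 tested pseudogenes named after them 10 were higher and 12 lower. Of all 695 tested processed pseudogenes 113 (16.3%) were called, against 791 of 10970 protein-coding genes (7.21%). Rps18 had 42.4 and 34 FPKM in CF1 libraries, against 420 and 423 FPKM in 129XOG2 libraries (-3.44, SE 0.10, adjusted p = 4.52e-07). Rpl34 had 19.1 and 17.2 FPKM in CF1 libraries, against 252 and 265 FPKM in 129XOG2 libraries (-3.76), and Rpl21 was at -3.72. How reads were split between a gene and its copies was not tested, so the levels of these genes are uncertain. Sums over a gene and its pseudogenes are given below.

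Rpl35a, of the large ribosomal subunit, shows how close the copies are. It had 24.9 and 21.5 FPKM in CF1 libraries, against 185 and 220 FPKM in 129XOG2 libraries (-3.07). Its 4 expressed named pseudogenes, Rpl35a-ps2, -ps3, -ps4 and -ps6, summed to 254 and 253 FPKM in CF1 libraries, against 17.7 and 17.9 FPKM in 129XOG2 libraries. Together gene and pseudogenes came to 279 and 275 FPKM in CF1 libraries, against 203 and 238 FPKM in 129XOG2 libraries, so the sums differed far less than the parts. All 4 copies lie on different chromosomes, have the same 333 bases and differ from the coding sequence of Rpl35a at 1 base (99.7% identity). Bases 96 to 216 are shown for the coding sequence of the gene (chr16:33056453-33060189, plus strand) and for the copy on chromosome 5 (chr5:123255481-123255813, minus strand), from GENCODE M21 transcripts of mm10, with the base that differs as a capital.
Rpl35a: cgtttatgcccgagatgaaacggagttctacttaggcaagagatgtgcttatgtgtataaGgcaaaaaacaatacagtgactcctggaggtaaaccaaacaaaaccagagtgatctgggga
Rpl35a-ps6: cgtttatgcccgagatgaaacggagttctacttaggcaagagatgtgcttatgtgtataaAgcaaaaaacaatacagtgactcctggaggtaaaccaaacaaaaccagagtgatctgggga

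Over 43 ribosomal protein families with an expressed pseudogene, the log2 ratio of the gene between CF1 and 129XOG2 MEFs ran from -3.96 to 0.42 (SD 1.09, 5 families beyond 1 in size). That of the family sum ran from -1.55 to 0.33 (SD 0.37, 2 beyond 1, Rps18 and Rpl21; median -0.16). Adding pseudogenes can narrow a ratio with no exchange of reads, and such exchange was not tested. For Rpl21 the ratio was -3.96 for the gene, -0.50 for its pseudogenes and -1.21 for the sum. Rps2 and its pseudogenes summed to 1174 and 1062 FPKM in CF1 libraries, against 1310 and 1371 FPKM in 129XOG2 libraries, with 78.9% and 78.9% of that in pseudogenes in CF1 libraries, against 15.3% and 15.3% in 129XOG2 libraries. For Rpl34 the sums were 618 and 593 FPKM in CF1 libraries, against 622 and 683 FPKM in 129XOG2 libraries. Family members were chosen after the values were seen, and copies named only by a predicted gene number are not in the sums.

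Of the 8 called ribosomal protein genes 6, and of the 113 called processed pseudogenes 55, are among the 144 genes chosen because the 8 CF1 libraries of days 0 to 12 lie on 1 side of the other 22. Their levels are given as a description of that choice. Gm8730, a processed pseudogene with the largest fall of all (-5.93), lay at 3.69 to 7.33 FPKM in the 8 CF1 libraries, at 313 and 344 FPKM in the 2 CF1 iPSC libraries, and at 215 to 529 FPKM over the other 22. Rps18 lay at 30.3 to 55.7 FPKM in those 8, at 630 to 701 FPKM in the CF1 iPSC libraries and at 276 to 889 FPKM over the other 22. Rpl35a-ps6 was opposite, with 32.8 to 52.1 FPKM in the 8, 1.97 to 2.81 FPKM in the CF1 iPSC libraries and 0.677 to 5.15 FPKM over the other 22. Tpm3-rs7, an intronless copy of a tropomyosin gene (3.29), and Pianp, a membrane protein gene (2.99), which stand among the named rises, belong to the same 144 genes. Of the 783 called protein-coding genes other than ribosomal protein genes, 46 (5.87%) do.

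**Figure D5:**
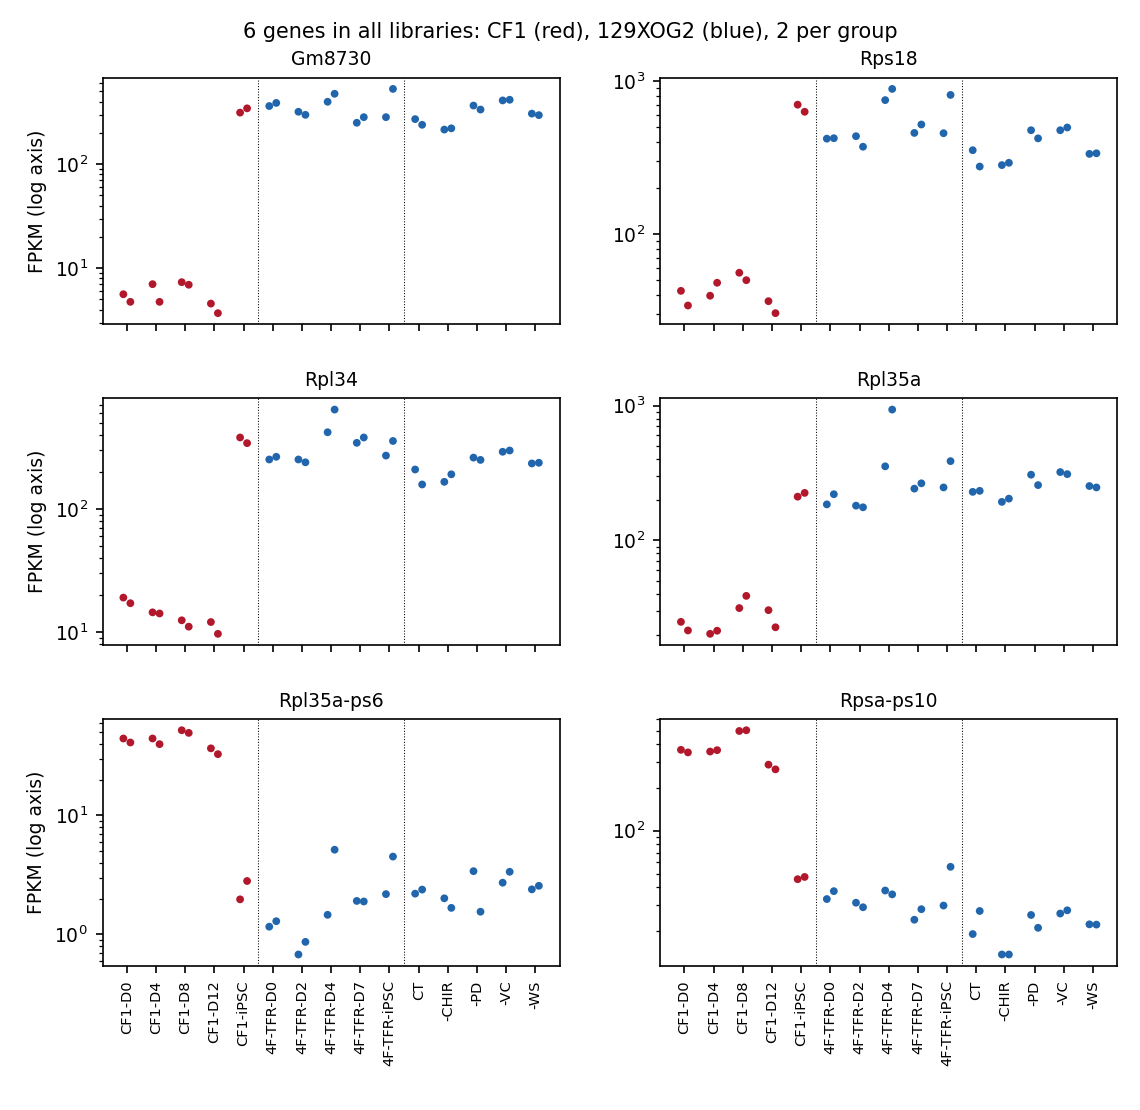
FPKM on a log axis in all 30 libraries (2 points per group; red, labelled CF1; blue, labelled 129XOG2; dotted lines separate the 3 deposited tables) for 6 genes of the 144 that set the 8 CF1 libraries of days 0 to 12 apart. By the choice of genes, the red points of CF1-iPSC lie on the side of the blue points in each panel.

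Nnt, a mitochondrial transhydrogenase of which C57BL/6J mice carry a known deletion, was split over 2 overlapping identifiers on chromosome 13. ENSMUSG00000116207 was listed at 0 in both CF1 libraries and had 16.5 and 11.4 FPKM in 129XOG2 libraries (-3.88 on the log scale). ENSMUSG00000025453 had 25.9 and 26.2 FPKM in CF1 libraries, against 1.55 and 5.66 FPKM in 129XOG2 libraries (2.72). Summed, they came to 25.9 and 26.2 FPKM in CF1 libraries, against 18 and 17.1 FPKM in 129XOG2 libraries, so the opposite calls do not give the level of the gene. The first identifier was at 0 in all 8 CF1 libraries of days 0 to 12 and at 8.04 to 10.2 FPKM in the CF1 iPSC libraries. In the list of genes known to vary between mouse strains, 3 of 10 tested identifiers were higher and 3 lower (median -0.58), and without 129XOG2 replicate 2 only 1 was lower. The 2 Nnt identifiers are in that list, as 1 of the 3 higher and 1 of the 3 lower. Ifi202b, a DNA sensor of the interferon-inducible p200 family that varies with strain, had 23.2 and 24.8 FPKM in CF1 libraries, against 8.15 and 8.87 FPKM in 129XOG2 libraries (1.39), and the surface antigen gene Ly6a was lower (-1.09).

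The iPSC libraries labelled with the same genotypes (2 each) were compared by the same fit, to see which day 0 calls were also made there. At the 144 genes above, which were chosen for it, the CF1 iPSC libraries lay with the 129XOG2 libraries. That these iPSCs match the CF1 MEFs rests on the label and was not tested. Of 12441 genes tested 321 were higher and 139 lower in CF1 than in 129XOG2 iPSCs, together 3.7% (2.58% higher, 1.12% lower). Of the 962 genes called at day 0, 598 were tested in iPSCs and 364 were not. In the same direction 42 were called, 7.02% of the 598, 4.37% of all day 0 calls and 9.13% of the iPSC calls, and in the opposite direction 34, 5.69% of the 598. H2-D1 was higher at both points (1.84 at day 0 and 1.49 in iPSCs), as were H2-K1 (1.66 and 1.00), Ifi202b (1.39 and 2.43) and Usp18 (1.15 and 1.75). Fos (-2.60 and -1.10), Egr1 (-1.17 and -2.25) and the cholesterol enzyme gene Lss (-1.67 and -1.05) were lower at both. Some genes of the ATF4 response and of the Dlk1-Dio3 cluster were called in the opposite direction in iPSCs, with Trib3 higher by 1.56, Chac1 by 1.80, Rian by 1.59 and Meg3 by 1.5. The iPSCs were grown on feeder cells, and the fibroblast gene Col1a1 averaged 53.3 FPKM in CF1 iPSCs and 17.5 FPKM in 129XOG2 iPSCs; the part of feeder RNA in these values was not tested.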

How the data were processed

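RNA was sequenced in 30 mouse libraries, 2 in each of 15 groups, with reads of 150 bp; 4 are the day 0 MEFs compared here. The authors deposited FPKM values per gene in 3 tables of 10 libraries. The tools named per the submitters' processing notes are StringTie (version 2.0), HISAT2 (2.2.1) and fastp (0.20.1), with mm10 as the genome; the annotation, the strand setting and any scaling of a table are not given in the sources used here, so genes that overlap, also on the other strand, may share reads. FPKM holds no counts, so no count model was run and precision rests on the 2 replicates of each group.

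Rows were joined by gene identifier, and 99.5% of identifiers matched GENCODE M21, from which symbols and positions come. Values were taken as log2(FPKM + 1) and tested with limma 3.58.1 (R 4.3.3; lmFit, then eBayes with a trend) on the 4 libraries, with Benjamini-Hochberg adjustment over all genes tested. Fold changes printed with no other mark are these log2 differences, CF1 minus 129XOG2, and SE is their standard error from limma.

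The members and the 43 gene lists (908 genes) were written from general knowledge, with earlier results of these data known, so no list count is independent evidence. Named genes are the 15 largest rises and 15 largest falls among called genes whose libraries did not overlap, whose higher group averaged at least 5 FPKM, and which are neither predicted models nor pseudogenes by symbol, and members of the lists; ribosomal protein genes, pseudogenes and the genes that set 8 libraries apart were chosen after the values were seen. Other settings tried were the pseudocount, the filter on low values, TPM and median-ratio scaling, all 20 libraries of both tables in the fit, the fold threshold, a term for the replicate number and leaving out each library. Most members of the lists are counted without being named, and 4 tested cholesterol genes are not drawn in the plot of that list.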

Additional observations from a re-analysis of the deposited data

How the results depend on the processing

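At day 0 the 524 higher and 438 lower calls became 104 and 50 at a fold threshold of 4, and the lower calls 735 with a pseudocount of 0.1 and 709 on TPM; leaving out 1 library gave 374 to 535 higher and 336 to 471 lower. In iPSCs the 321 higher and 139 lower calls became 189 higher with a filter of 5 FPKM, 351 lower on TPM, and 0 of each by limma with no filter on low values, where 4069 of 25970 genes had an unadjusted p under 0.05; leaving out 1 library gave 227 to 400 higher and 98 to 351 lower, 351 without the 129XOG2 iPSC replicate 1 and 245 without the CF1 iPSC replicate 2. The 42 calls shared in direction became 0 with no filter and 21 with the filter of 5 FPKM, and 33 to 53 with 1 library left out. With 1 library left out, the lone sample of its group was assumed to vary like the others, and genes near 0 in the other group missed the filter. Replicate numbers did not pair the day 0 libraries (the deviations of libraries with the same number correlated at -0.128); a replicate block gave 525 higher and 439 lower at day 0, 343 and 186 in iPSCs, and 45 shared. Other settings were added after seeing the data: protein-coding genes other than ribosomal protein genes gave 441 higher and 342 lower, and leaving out the 144 genes above 472 and 376. Of 215 called genes followed through these settings other than the fold threshold and the 2 added ones, 0 changed sign where they had a value, and 25 fell below a threshold under at least 1, 24 of them with 1 library left out; the filter removed others, leaving 183 at 5 FPKM, 192 without either CF1 library and 201 without either 129XOG2 library. At a fold threshold of 4 the cholesterol, Hox, ATF4 and fibroblast lists each had 0 lower members. The p53 and antigen presentation lists each had 0 higher members at that threshold. Macrophage markers kept 4 higher, cytokines and chemokines 3 higher, and regional factors 2 lower. FPKM gives no counting interval, so 2 replicates of unknown independence limit what these data can show.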
